A study of Equus caballus with 15 samples.

Results

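Efferocytosis is the clearance of dying cells by phagocytes, and the genes described here encode its receptors, the soluble ligands that bridge them to dying cells, and the adaptors that pass the signal into the phagocyte. The set was chosen by name and holds 10 genes: the TAM receptor tyrosine kinases MERTK, AXL and TYRO3, the bridging ligands GAS6, PROS1 and MFGE8, the phosphatidylserine receptor TIMD4, the lipid receptor TREM2 with its signaling adaptor TYROBP, and the engulfment adaptor ELMO1. Of these, 8 were listed under their symbols among 16932 genes, and MFGE8 and TIMD4 were not analysed here. In all, 6 of the 8 reached a mean of 1 CPM, the read count of a gene scaled to the depth of its library, over all libraries and were tested with the 11628 genes that did. The others, TYRO3 and PROS1, are given by their levels.

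A dying cell exposes phosphatidylserine on its outer surface. GAS6 and PROS1 bind this lipid and present it to the TAM receptors, whose kinase activity promotes engulfment and dampens inflammatory signaling in macrophages. TREM2 binds lipids and lipoproteins and has no signaling tail of its own, so it relies on the membrane adaptor TYROBP, which other receptors of myeloid cells also use, while ELMO1 works with DOCK proteins to activate the GTPase RAC1 and rearrange actin around the particle. In synovium, MERTK marks resident lining macrophages.

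Macrophages were grown from blood monocytes of 2 horses for 5 days with human M-CSF at 30 ng/ml, and polyadenylated RNA was sequenced from 3 libraries in each of 5 conditions. Untreated cells received neither stimulus nor product, and the IL-1ß group received IL-1ß at 10 ng/ml for 24 h. The remaining groups received IL-1ß at the same dose together with an orthobiologic therapy (OT) making up 25% of the medium: conditioned medium of bone marrow mesenchymal stromal cells (MSC-CM), platelet rich plasma (PRP) lysate, or autologous conditioned serum (ACS), PRP lysate and ACS being blood products. The OTs were all prepared from 3 donor horses, which were not the macrophage donors. The library titles do not say which macrophage donor was used, so the fits have no term for it. The ACS labels carry no replicate numbers that would tie a library to the PRP lysate or MSC-CM of the same horse, so the fit of all 15 libraries has no donor term. PRP lysate and MSC-CM titles are numbered, and a fit with that number as a block is given at the end. The IL-1ß and untreated libraries are technical replicates, so the p-values against those groups partly measure technical spread.

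Libraries held about 28410742 to 47894073 reads on genes as estimated from the step between values, so that 1 CPM corresponds to at least 28.4 reads. All 13 macrophage markers reported here passed the expression filter, among them CD68 at 1340 to 2157 CPM. T cell markers were present as well, with a summed level of 564 to 1497 CPM over 7 genes, whereas 7 of the 8 listed stromal markers had a mean below 1 CPM. In bulk RNA, fewer cells of a type and less RNA per cell cannot be told apart. A pair of libraries stood apart from the others on the first principal component (55.4% of the variance), IL-1ß replicate 3 at -103 and PRP lysate replicate 1 at -51.7 against -20.7 to 26.6 elsewhere. Calls that rest on them are given with and without them.

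MERTK was the only member called in any comparison with all libraries and limma. It fell 6.47-fold with PRP lysate relative to IL-1ß alone, on the log2(CPM + 1) scale used throughout for changes, and was lower in all 3 ACS libraries than in any IL-1ß library, while the MSC-CM libraries overlapped the IL-1ß libraries. AXL, GAS6, TREM2, TYROBP and ELMO1 did not pass the test against IL-1ß under any OT. Calls required an adjusted p no higher than 0.05 (limma, Benjamini-Hochberg over 11628 genes) and a 2-fold change or more. MERTK was put forward for its difference between PRP lysate and ACS. Its tests of either product against other groups reuse those libraries, so that choice favours their p-values, ranks and counts.

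**Figure D1:**
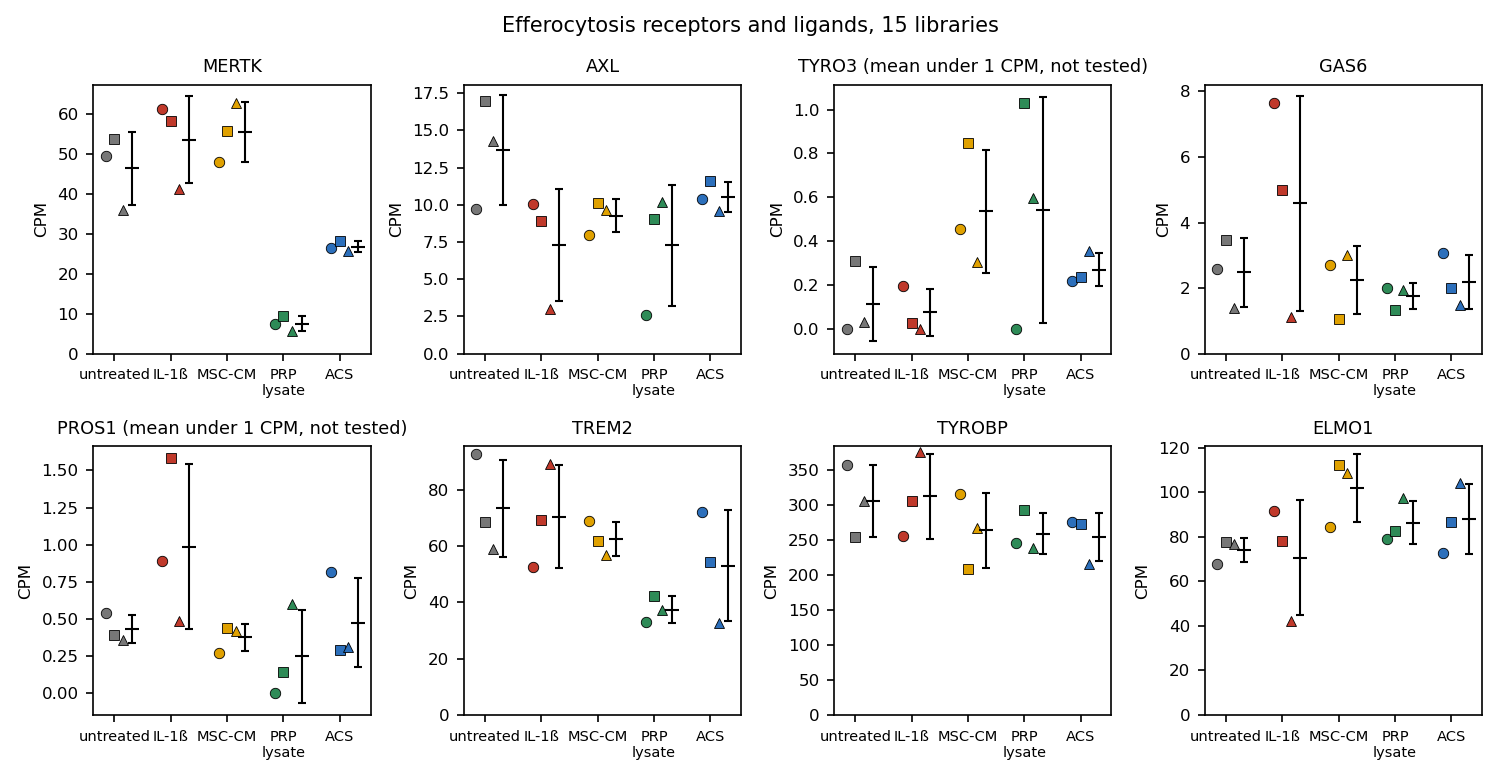
Expression of the 8 listed genes in CPM (y axis, linear) in each of the 5 conditions (x axis); circles, squares and triangles are replicates 1, 2 and 3, and the bar beside them is the mean with its SD (n = 3). MERTK lies between 5.56 and 9.35 CPM with PRP lysate and between 25.7 and 28.2 CPM with ACS, below all 9 libraries of the other conditions, which reach from 36.0 to 62.8 CPM.

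MERTK (ENSECAG00000023970, EquCab3.0 chr15:15557406-15659751) had 49.4, 53.5 and 36.0 CPM in untreated replicates 1 to 3. In the IL-1ß libraries it had 61.3, 58.1 and 41.1 CPM, and with MSC-CM 47.9, 55.8 and 62.8 CPM. These ranges overlap, and the level in IL-1ß alone (53.5 ± 10.8 CPM, SD, n = 3) was not separated from untreated (46.3 ± 9.17) or from MSC-CM (55.5 ± 7.45). The blood products gave other levels. With ACS the libraries had 26.5, 28.2 and 25.7 CPM (mean 26.8 ± 1.29), and with PRP lysate 7.44, 9.35 and 5.56 CPM (mean 7.45 ± 1.89). Ordered by level, PRP lysate was lowest and ACS next, with no overlap between either group and any other condition, whereas the 3 upper groups could not be ordered beyond their spread. Of all genes tested, 15% had non-overlapping groups for PRP lysate against IL-1ß, 19.4% against MSC-CM, 18.6% against untreated and 15.6% against ACS, and for ACS 26.2% against IL-1ß, 35.1% against MSC-CM and 26.3% against untreated. The lowest MERTK value still rested on 158 reads.

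Relative to IL-1ß alone, MERTK fell by 2.69 on the log2 scale with PRP lysate (SE 0.21, adjusted p = 1.71e-05, limma), a 6.47-fold decrease with a 95% interval of 4.71 to 8.88. It was the 27th gene of 11628 in the order of most negative changes. The call was the same without IL-1ß replicate 3, without PRP lysate replicate 1, and in every other alternative, with log2 changes from -2.91 to -2.52. Among the 6 tested members 1 was called in this comparison (MERTK), where 3.09% of all genes were called and 2.02% were called lower.

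The ACS change of MERTK against IL-1ß was -0.95 on the log2 scale (SE 0.21, adjusted p = 0.0273, limma), or 1.94-fold lower with a 95% interval of 1.41 to 2.66. Because the change lay just below the 2-fold requirement, 0 of 6 members were called with limma, against 2.21% of all genes, although 1 member (MERTK) had an unadjusted p under 0.05. DESeq2 and edgeR on the recovered reads each called 1 member, again MERTK. Without IL-1ß replicate 3 the change was -1.13 and passed both requirements (adjusted p = 0.0122, limma). Without IL-1ß replicate 2 or any 1 ACS library the adjusted p was 0.0828 to 0.108, without IL-1ß replicate 1 it was 0.0435 with a change of -0.85, and in a fit of the 2 groups alone it was 0.143. The 3 ACS libraries and the 3 IL-1ß libraries did not overlap.

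MSC-CM changed MERTK by 0.06 on the log2 scale relative to IL-1ß (95% interval -0.39 to 0.52, adjusted p = 0.917, limma), and the sign of this difference turned in several alternatives. No member was called for MSC-CM, and limma called 0% of all genes. One gene of the set, ELMO1, had an unadjusted p under 0.05 there. DESeq2 and edgeR called 0 members.

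MERTK libraries overlapped between IL-1ß and untreated cells, with a log2 change of 0.20 for IL-1ß against untreated (95% interval -0.25 to 0.66, adjusted p = 0.663, limma). In that comparison 0 of 6 members were called, against 0.292% of all genes, 0 members had an unadjusted p under 0.05, and DESeq2 and edgeR also called 0.

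Comparisons of MERTK with groups other than IL-1ß gave changes of the same order, although the fit still took its spread from all 15 libraries. Against MSC-CM, PRP lysate lowered MERTK by 6.76-fold (log2 change -2.76, SE 0.21, adjusted p = 2.25e-05, limma), 1 of 6 members called against 2.61% of all genes. Against the same group, ACS lowered it by 2.02-fold (log2 change -1.02, SE 0.21, adjusted p = 0.0278, limma), 1 of 6 members called against 1.23% of all genes. That call was lost when any 1 of the 6 libraries was left out (adjusted p from 0.0597 to 0.160) and by the DESeq2, TMM and RLE alternatives, in which the change stayed between -0.997 and -0.967 and under 2-fold. Relative to untreated macrophages, MERTK was 5.62-fold lower with PRP lysate (log2 change -2.49, SE 0.21, adjusted p = 4.40e-05, limma), 1 of 6 members called against 1.6% of all genes. For ACS against untreated the log2 change was -0.75 (95% interval -1.21 to -0.29, adjusted p = 0.232, limma). There 0 of 6 members were called against 0.37% of all genes, and 1 had an unadjusted p under 0.05, while DESeq2 and edgeR called 0.

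The difference between the blood products was the reason MERTK was put forward, so it is described without a test. All 3 PRP lysate libraries (5.56 to 9.35 CPM) were below all 3 ACS libraries (25.7 to 28.2 CPM), and the mean CPM was 3.59 times lower. On the log2 scale the difference was -1.74. Of the other 5 tested members, 0 were called between PRP lysate and ACS, where 0.0946% of all genes were called, 0 had an unadjusted p under 0.05, and DESeq2 and edgeR called 0. Their log2 differences ran from -0.64 for AXL to 0.03 for TYROBP.

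**Figure D2:**
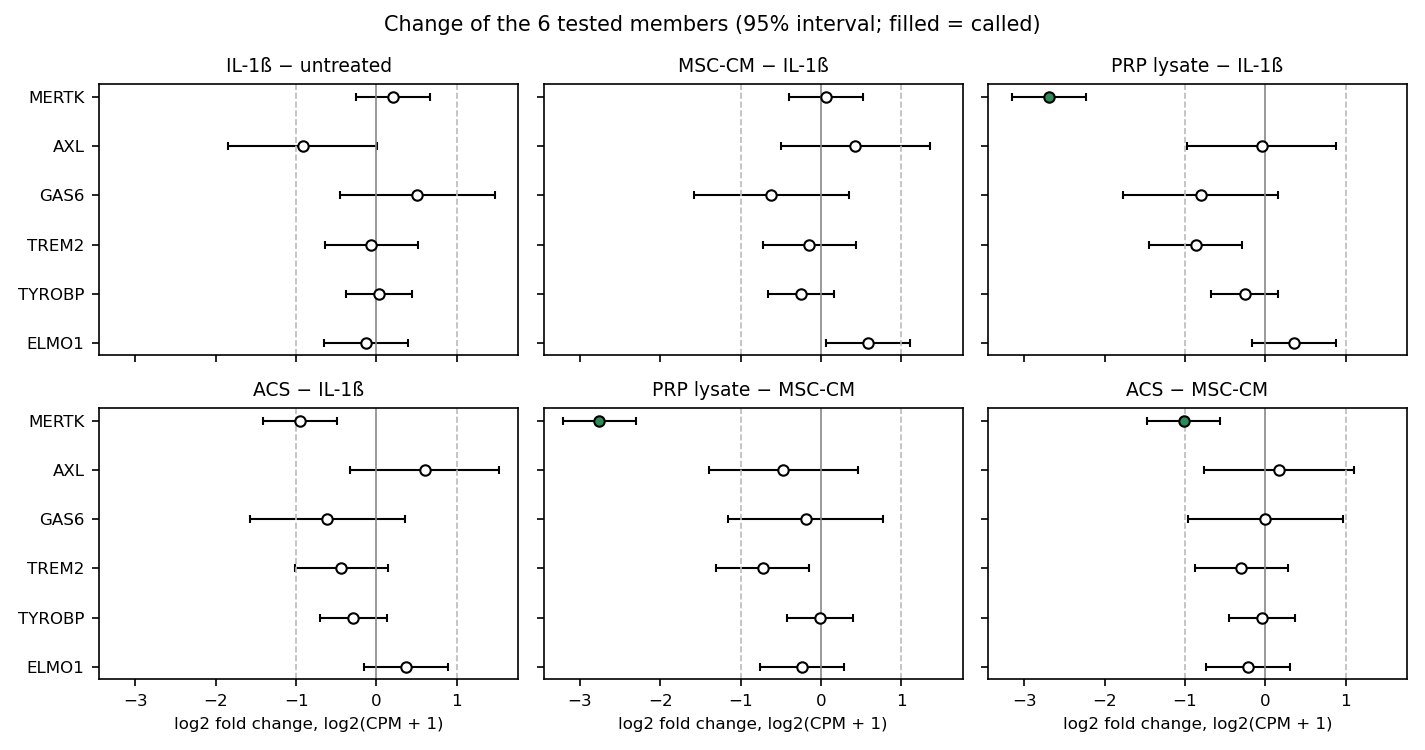
Log2 fold change on the log2(CPM + 1) scale (x axis) of the 6 tested members (y axis) in 6 comparisons, with 95% intervals from the limma fit of 15 libraries; filled points were called and dashed lines mark 2-fold. MERTK sits at -2.69 for PRP lysate and -0.95 for ACS against IL-1ß, while the points of the other members lie between -0.92 and 0.60.

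AXL, the TAM receptor that inflammatory stimuli induce in many macrophages, overlapped between all groups. AXL (ENSECAG00000011471, chr10:11938587-11965855) had 9.73, 17.0 and 14.3 CPM in untreated libraries, 10.0, 8.90 and 3.01 CPM with IL-1ß, and 7.99, 10.1 and 9.64 CPM with MSC-CM. With PRP lysate it had 2.58, 9.04 and 10.2 CPM, and with ACS 10.4, 11.6 and 9.60 CPM. The lowest value of each of the IL-1ß and PRP lysate groups came from the library that stood apart, and no neighbours in the order of the 5 group means were separated. The log2 change for IL-1ß against untreated was -0.92 (SE 0.43, adjusted p = 0.391, limma) and for PRP lysate against untreated -0.96 (SE 0.43, adjusted p = 0.362, limma). Without IL-1ß replicate 3 the first was -0.46 (adjusted p = 0.712, limma), and without PRP lysate replicate 1 the second was -0.44 (adjusted p = 0.767, limma).

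The ratio of MERTK to AXL within a library rested on both genes. It was 6.11, 6.53 and 13.7 in the IL-1ß libraries and 5.99, 5.51 and 6.51 with MSC-CM. With ACS it was 2.55, 2.43 and 2.67, and with PRP lysate 2.89, 1.03 and 0.547. The ratio was lower in every library of either blood product than in any IL-1ß or MSC-CM library, whereas the untreated ratios of 5.07, 3.15 and 2.51 overlapped those with PRP lysate and ACS. The highest ratio of the IL-1ß and of the PRP lysate group came from the library that stood apart, where AXL was lowest. These are ratios of CPM without gene length, so their size says nothing of which receptor is the more abundant.

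TYRO3 (ENSECAG00000017862, chr1:148648905-148664475), the third TAM receptor, was near the detection limit. It was at 0 reads in 3 of 15 libraries and reached at most 43 reads (1.03 CPM, PRP lysate replicate 2). A count of 0 allows up to 3 reads, which is 0.0902 to 0.106 CPM in the shallowest libraries of the groups with a 0. Group means were 0.113 CPM in untreated, 0.0743 CPM in IL-1ß, 0.535 CPM in MSC-CM, 0.542 CPM in PRP lysate and 0.270 CPM in ACS libraries, and TYRO3 was called in no comparison by limma without the expression filter, DESeq2 or edgeR.

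Among the ligands, GAS6 (ENSECAG00000000014, chr17:80318035-80359874) was the only one of the 3 that could be tested. GAS6 requires vitamin K dependent carboxylation to bind phosphatidylserine. It had 2.58, 3.48 and 1.38 CPM in untreated libraries and 7.64, 5.001 and 1.11 CPM with IL-1ß. With MSC-CM it had 2.695, 1.05 and 2.996 CPM. The PRP lysate libraries had 2.02, 1.31 and 1.94 CPM and the ACS libraries 3.08, 2.002 and 1.48 CPM.

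The first and second IL-1ß libraries were thus the highest of all 15 and the third was among the lowest, and the 5 groups overlapped. With all libraries, GAS6 changed by -0.80 on the log2 scale for PRP lysate against IL-1ß (SE 0.45, adjusted p = 0.389, limma). With 1 library left out this change ran from -1.40 to -0.38, with an adjusted p of up to 0.648 (limma). Without IL-1ß replicate 3, GAS6 was called lower with PRP lysate (log2 change -1.40, adjusted p = 0.0315, limma), and likewise without that library and PRP lysate replicate 1 (-1.47, adjusted p = 0.0253, limma). With the 2 libraries left out, 2 of 6 members were called in this comparison, MERTK and GAS6, where 513 of 11628 genes were called and 313 of them lower.

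PROS1 (ENSECAG00000016509, chr19:62603926-62670978), the protein S gene, was scarcer still. It was at 0 reads in PRP lysate replicate 1 and had 6 to 56 reads in the other libraries, with its highest level, 1.58 CPM, in IL-1ß replicate 2. Its mean was 0.985 ± 0.555 CPM with IL-1ß (n = 3) and 0.247 to 0.474 CPM in the other groups, and PROS1 was called in no comparison by limma without the expression filter, DESeq2 or edgeR. PRP lysate and ACS are made from blood, and protein that they carry is not measured by RNA.

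TREM2 (ENSECAG00000015270, chr20:41462589-41467732) was lowest with PRP lysate, at 32.8, 42.1 and 37.4 CPM. It had 92.5, 68.5 and 59.0 CPM in untreated libraries, 52.6, 69.3 and 89.1 CPM with IL-1ß and 68.8, 61.8 and 56.6 CPM with MSC-CM. With ACS it had 71.9, 54.1 and 32.8 CPM. All 3 PRP lysate libraries were below all untreated, IL-1ß and MSC-CM libraries, but not below the ACS libraries, whose lowest value equalled that of PRP lysate to 3 digits.

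The log2 change of TREM2 for PRP lysate was -0.87 against IL-1ß (95% interval -1.45 to -0.29, adjusted p = 0.0912, limma). It was -0.73 against MSC-CM (-1.30 to -0.15, adjusted p = 0.188) and -0.93 against untreated (-1.51 to -0.36, adjusted p = 0.102), so none passed with limma. Over the alternatives the change against IL-1ß ran from -1.06 to -0.59 and always kept its sign. DESeq2 called TREM2 against IL-1ß (-1.05, adjusted p = 0.0273) and against untreated (-1.02, adjusted p = 0.0491), as did limma against IL-1ß without IL-1ß replicate 1 (-1.06, adjusted p = 0.0496). Groups of MERTK and TREM2, 2 of 6 members, did not overlap between PRP lysate and IL-1ß, against the 15% of all genes given above.

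TYROBP (ENSECAG00000040744, chr10:7189953-7192650), the adaptor that TREM2 needs at the membrane, was the most even member. It ranged from 209 to 375 CPM over all 15 libraries, with means of 305 ± 51.2 in untreated, 312 ± 60.5 with IL-1ß, 264 ± 53.2 with MSC-CM, 259 ± 29.5 with PRP lysate and 254 ± 34.1 CPM with ACS. Every group overlapped every other. Its log2 change was -0.26 for PRP lysate, -0.29 for ACS and -0.25 for MSC-CM against IL-1ß, and the 95% interval for PRP lysate reached from -0.67 to 0.15. Without IL-1ß replicate 3 these changes were -0.12, -0.14 and -0.10.

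The ratio of TREM2 to TYROBP in the same library was 0.134, 0.144 and 0.157 with PRP lysate. It was 0.206, 0.227 and 0.237 with IL-1ß and 0.194 to 0.296 over the untreated and MSC-CM libraries, so that the receptor was lower relative to its adaptor in every PRP lysate library than in any library of those 3 conditions. The ACS ratios, 0.262, 0.199 and 0.153, overlapped both. Set against the mean of the macrophage markers (13 genes), TREM2 was not low with PRP lysate. The difference in log2(CPM + 1) was 0.87, 0.60 and 0.59 there and -0.10, 0.06 and 0.80 with IL-1ß. PRP lysate had the highest mean of the 5 groups on this measure (0.69, against 0.25 with IL-1ß, 0.26 with MSC-CM, 0.39 in untreated and 0.42 with ACS), and it overlapped all but MSC-CM.

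ELMO1 (ENSECAG00000019233, chr4:66522320-67043014), which acts inside the cell after receptor engagement, had a higher mean in each OT group than in the untreated or IL-1ß group, and no difference passed the test. It had 67.7, 77.6 and 76.9 CPM in untreated libraries, 91.8, 78.2 and 42.1 CPM with IL-1ß, and 84.6, 112 and 109 CPM with MSC-CM. With PRP lysate it had 79.3, 82.6 and 97.4 CPM, and with ACS 73.0, 86.9 and 104 CPM.

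The IL-1ß libraries covered most of this range, with the lowest value of all 15 in IL-1ß replicate 3. For MSC-CM against IL-1ß the log2 change of ELMO1 was 0.58 (95% interval 0.06 to 1.11, adjusted p = 0.705, limma), and over the alternatives it ran from 0.25, without IL-1ß replicate 3, to 0.81. All 3 MSC-CM libraries lay above all 3 untreated libraries (log2 change 0.45, adjusted p = 0.411, limma), which held for 30.8% of all genes in either direction. The PRP lysate libraries also lay above the untreated ones (0.22, adjusted p = 0.865, limma). Between these groups 3 of 6 members did not overlap (ELMO1, MERTK and TREM2), against 18.6% of all genes in either direction. For MSC-CM against untreated, 0 of 6 members were called against 0.662% of all genes, 0 had an unadjusted p under 0.05, and DESeq2 and edgeR called 0.

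Macrophage markers had lower levels with PRP lysate than with IL-1ß in 12 of 13 cases, by uneven amounts. Of the 13 tested, 4 were called lower against IL-1ß, namely the hemoglobin scavenger receptor CD163 (log2 change -5.50), the complement component C1QC (-1.89), lysozyme LYZ (-1.73) and the scavenger receptor MARCO (-1.43). Of all genes 2.02% were called lower there. The median change of the 13 was -1.08, against 0.11 for all genes. CD163, the marker that fell more than MERTK, had 685, 638 and 365 CPM with IL-1ß and 7.34, 13.3 and 13.4 CPM with PRP lysate. CD68, a lysosomal marker, was at 1340, 1929 and 1712 CPM with PRP lysate and at 1673, 1742 and 1476 CPM with IL-1ß (log2 change 0.01). The count of markers called lower was 5 without IL-1ß replicate 3, 3 without PRP lysate replicate 1 and 4 without both, and with all libraries DESeq2 called 7 and edgeR 5.

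With ACS, 1 of the 13 markers was called lower against IL-1ß (CD163, -3.12), where 2.21% of all genes were called in either direction. Their median change was -0.34 against 0.13 for all genes. In that comparison 3 of the 13 had a more negative change than MERTK, namely CD163, LYZ and ADGRE1. DESeq2 called 3 of the 13 there (CD163, C1QC and CD14) and edgeR 1. The summed CPM of the 13 markers was 2562 to 4606 with PRP lysate, 4122 to 5470.2 with ACS and 4235 to 7008 with IL-1ß. T cell markers summed to 748 to 1497 CPM with PRP lysate and 777 to 1444 CPM with IL-1ß, overlapping. With ACS they summed to 673 to 835 CPM, below the 1076 to 1140 CPM with MSC-CM. In that comparison 5 of the 7 were lower with ACS at an unadjusted p under 0.05 (limma), and limma, DESeq2 and edgeR called 0. Of 7 T cell markers limma and edgeR called 0 against IL-1ß with either blood product (2 with PRP lysate and 1 with ACS had an unadjusted p under 0.05), and DESeq2 called 1 lower with both, TRAT1. Of 4 B cell and 5 NK cell markers limma and edgeR also called 0 with either product against IL-1ß (with PRP lysate 2 and 1, and with ACS 1 and 0, had an unadjusted p under 0.05). DESeq2 called MS4A1 and NCR1 lower with PRP lysate and CD79A lower with ACS, and with limma CD79A was called lower with PRP lysate without PRP lysate replicate 1 and NCR1 without IL-1ß replicate 3. The B cell markers summed to 13.9 to 20.002 CPM with ACS, 12.2 to 29.8 CPM with PRP lysate and 26.6 to 48.2 CPM with IL-1ß, so that ACS lay below IL-1ß without overlap. The NK cell sum was 234 to 625 CPM with PRP lysate, the highest in replicate 1, against 190 to 412 CPM with IL-1ß.

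Markers of dendritic, endothelial and neutrophil lists moved as well. Of 4 tested dendritic cell markers, limma called FCER1A, a chain of the IgE receptor, and FLT3, a growth factor receptor, lower with PRP lysate against IL-1ß (log2 change -1.59 and -1.52), and FCER1A with ACS (-1.24). The ACS call of FCER1A was lost without IL-1ß replicate 3. The dendritic markers summed to 215 to 361 CPM with PRP lysate and 236 to 285 CPM with IL-1ß, overlapping.

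Of 6 tested endothelial markers 1 was called lower with both blood products, PECAM1, an adhesion molecule that monocytes and platelets also carry (-2.59 and -1.79). The endothelial sum was 68.7 to 108 CPM with PRP lysate, 125 to 158 CPM with ACS and 257 to 521 CPM with IL-1ß, without overlap, and PECAM1 alone made up 244 to 500.4 CPM of it with IL-1ß. The other 5 had log2 changes of 0.01 to 1.13 with PRP lysate, and CDH5 was called higher without PRP lysate replicate 1 and by DESeq2. CSF3R, the G-CSF receptor and the one neutrophil marker that passed the expression filter, had 485, 545 and 539 CPM with PRP lysate and 670, 759 and 530 CPM with ACS against 324, 307 and 390 CPM with IL-1ß. Each product lay above IL-1ß without overlap while the products overlapped each other, and the log2 changes against IL-1ß of 0.62 (adjusted p = 0.0680, limma) and 0.93 (adjusted p = 0.0143, limma) were under 2-fold. S100A12, another neutrophil marker, went the other way at low levels, with 0.473 to 2.88 CPM with IL-1ß and at most 0.383 CPM with either product, and DESeq2 called it lower with both.

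Of 3 tested platelet markers, PPBP, a platelet chemokine gene, was called higher with PRP lysate against MSC-CM (log2 change 2.06, adjusted p = 0.0103, limma) and against untreated (3.11, adjusted p = 0.00109), also by DESeq2 and edgeR. It had 10.7, 39.1 and 31.8 CPM with PRP lysate, 12.1, 11.2 and 11.1 CPM with IL-1ß and 4.14 to 5.41 CPM with MSC-CM. Against IL-1ß it overlapped and was not called (adjusted p = 0.208, limma). It was also called higher with IL-1ß and with ACS against untreated. The part of cell composition in the MERTK difference was not tested.

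Set against the macrophage markers of its own library, MERTK remained lowest with PRP lysate. The difference between MERTK and the mean of the 13 markers, each as log2(CPM + 1), was -1.13, -1.46 and -1.96 with PRP lysate. It was -0.67, -0.43 and -0.31 with ACS and 0.11, -0.19 and -0.29 with IL-1ß, and the untreated and MSC-CM libraries lay between -0.33 and 0.27. PRP lysate was separate from every other condition on this measure, while the highest ACS and the lowest IL-1ß library nearly met and ACS overlapped untreated. As a share of CD68, MERTK was 0.0032 to 0.0056 with PRP lysate, 0.0157 to 0.0176 with ACS and 0.0279 to 0.0366 with IL-1ß, again without overlap. Relative to CSF1R, the M-CSF receptor, it was 0.0268 to 0.0789 with PRP lysate, 0.0768 to 0.1035 with ACS and 0.1304 to 0.1813 with IL-1ß. On this measure PRP lysate and ACS overlapped, through PRP lysate replicate 1, and both lay below IL-1ß, while ACS overlapped untreated (0.0935 to 0.1026). Relative to SPI1, a myeloid transcription factor, PRP lysate (0.0142 to 0.0201) was again below all other groups, but ACS (0.0475 to 0.0561) overlapped IL-1ß (0.0515 to 0.1121) and untreated (0.0531 to 0.0900).

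**Figure D3:**
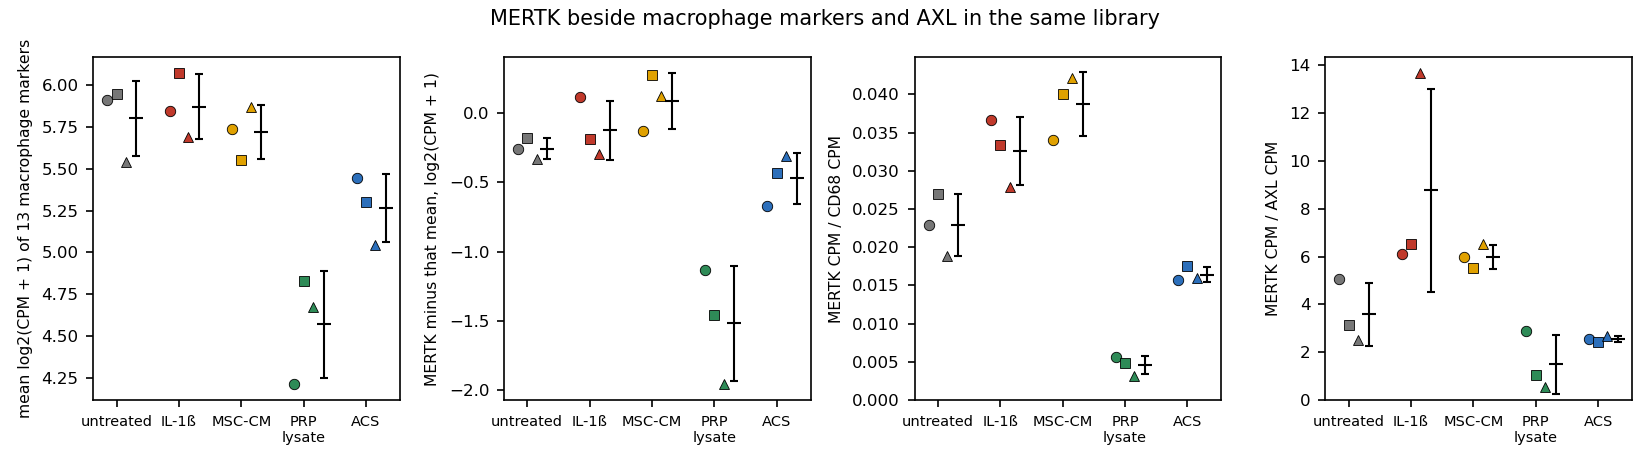
From left to right, the mean log2(CPM + 1) of 13 macrophage markers, MERTK minus that mean, and the CPM ratios of MERTK to CD68 and of MERTK to AXL (y axes) in each condition (x axes); symbols are replicates 1 to 3 and bars the mean with its SD (n = 3). The marker mean is 4.21 to 4.83 with PRP lysate and 5.69 to 6.08 with IL-1ß, and MERTK stays lowest with PRP lysate after subtracting it.

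Other receptors and bridging molecules for phosphatidylserine divided by gene rather than moving together. Of 15 tested, 3 were called lower and 1 higher with PRP lysate against IL-1ß, with a median change of -0.06 against 0.11 for all genes. Of all genes 3.09% were called there and 2.02% lower, and 8 of the 15 had an unadjusted p under 0.05 (limma). DESeq2 called 4 lower there and edgeR 3, and neither called a gene higher. STAB1, the receptor stabilin-1 that binds phosphatidylserine directly, had 64.4, 66.5 and 44.7 CPM with IL-1ß, 2.53, 11.4 and 17.1 CPM with PRP lysate and 17.9, 13.1 and 7.20 CPM with ACS. Both blood products were lower than IL-1ß in every library (log2 change -2.66, adjusted p = 0.0103, and -2.18, adjusted p = 0.0401, limma). Without IL-1ß replicate 3, STAB1 was called with PRP lysate and not with ACS, and without that library and PRP lysate replicate 1 it was called with both.

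CD36, a scavenger receptor for oxidized lipid and phosphatidylserine, had 252, 218 and 105 CPM with IL-1ß and 20.9, 77.2 and 58.1 CPM with PRP lysate (log2 change -1.95, adjusted p = 0.0228, limma). With ACS it had 72.2, 74.8 and 58.8 CPM (-1.38, adjusted p = 0.119). C1QC, a chain of the complement opsonin C1q that is also counted among the macrophage markers, had 7.005, 11.3 and 11.7 CPM with IL-1ß and 1.72, 3.01 and 1.23 CPM with PRP lysate.

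ITGB5, the integrin ß chain that pairs with the αv chain to bind MFGE8 on dying cells, went the other way. It had 150, 166 and 159 CPM with IL-1ß and 174, 158 and 112 CPM with MSC-CM, but 316, 378 and 290 CPM with PRP lysate and 365, 368 and 310 CPM with ACS. It rose with PRP lysate (log2 change 1.04, adjusted p = 0.00271, limma) and with ACS (1.13, adjusted p = 0.00362), without overlap. With PRP lysate the rise was close to the 2-fold requirement, and against IL-1ß DESeq2 and edgeR called ITGB5 with ACS only. Against MSC-CM limma, DESeq2 and edgeR called it with both products (1.16, adjusted p = 0.00156, and 1.25, adjusted p = 0.00270, limma). Relative to untreated (228, 240 and 292 CPM) ITGB5 was called in no comparison. With ACS against IL-1ß, 1 of the 15 genes rose (ITGB5) and 1 fell (STAB1) with limma and with edgeR, while DESeq2 called 4 lower (STAB1, CD36, C1QC and CD14). There 7 of the 15 had an unadjusted p under 0.05, and 2.21% of all genes were called (limma).

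**Figure D4:**
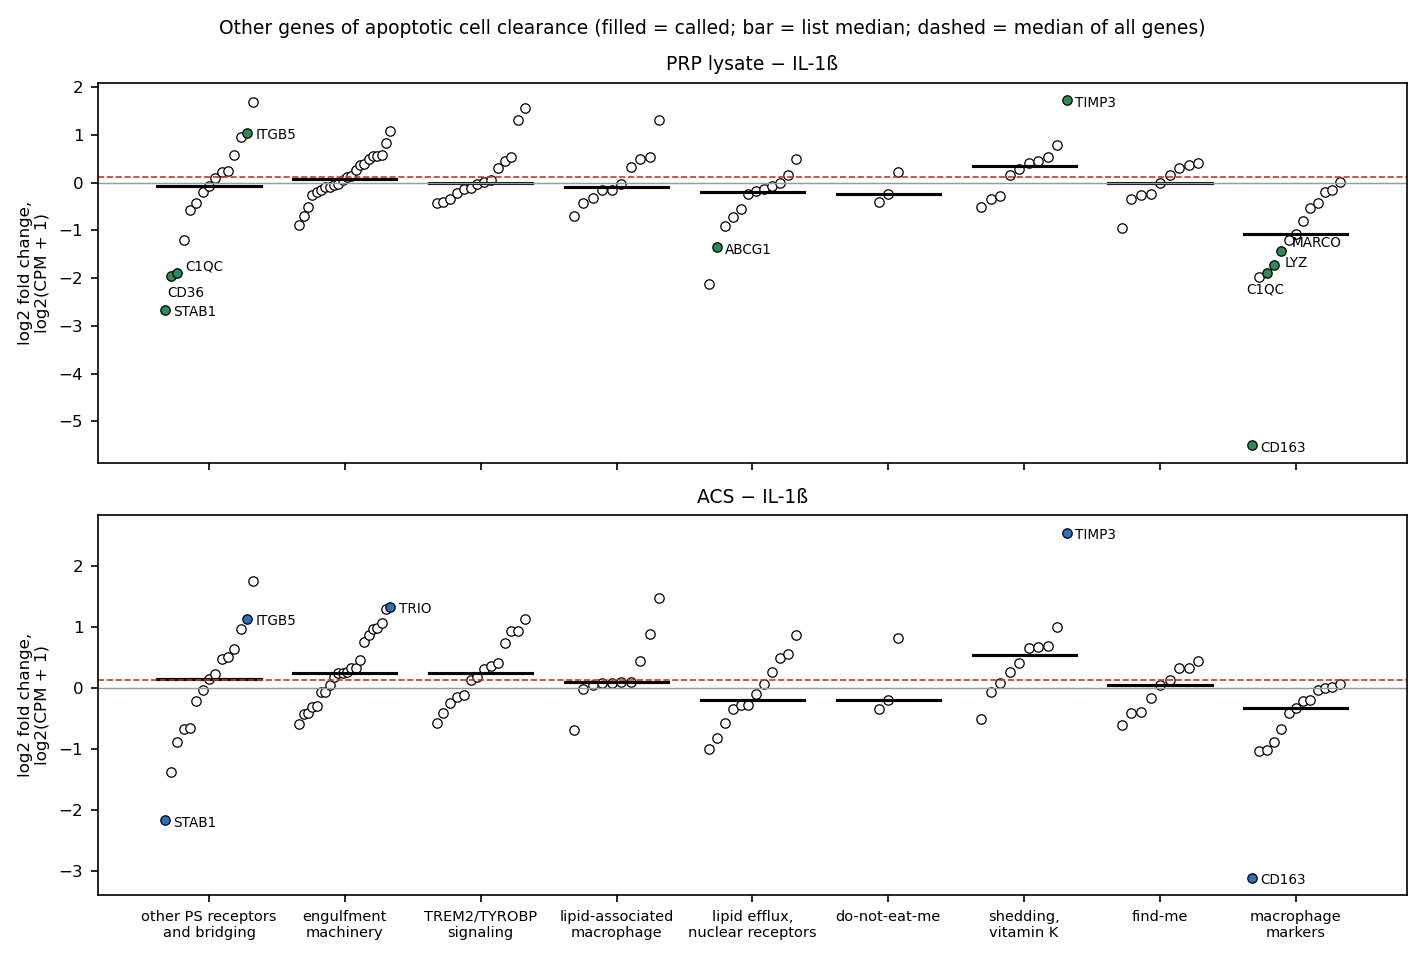
Log2 fold change on the log2(CPM + 1) scale (y axis) of each tested gene in 8 lists of apoptotic cell clearance and the macrophage markers (x axis), for PRP lysate (top) and ACS (bottom) against IL-1ß; filled points were called, bars are list medians and the dashed line is the median of all genes. STAB1 lies low and ITGB5 high in both panels, TIMP3 rises to 1.72 and 2.54, and the points of most lists straddle 0.

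Downstream of the receptors, few genes of the engulfment machinery beside ELMO1 were called. With PRP lysate 0 of 22 genes were called against IL-1ß (limma, median 0.08 against 0.11 for all genes), 5 had an unadjusted p under 0.05, and DESeq2 and edgeR called 0. Without PRP lysate replicate 1, 1 was called (TRIO). With ACS 1 of 22 was called higher, TRIO, an exchange factor for RHOG and RAC1, from 61.0, 42.9 and 21.9 CPM to 85.7, 105 and 106 CPM (log2 change 1.33, adjusted p = 0.0394, limma). TRIO was not called there without IL-1ß replicate 3. In all, 7 of the 22 had an unadjusted p under 0.05 with ACS. VAV1, another exchange factor for RAC proteins, was lower with both products without overlap and passed the adjusted p but not the 2-fold requirement. It had 271, 280.4 and 229.9 CPM with IL-1ß, 174, 182 and 185 CPM with PRP lysate (log2 change -0.52, adjusted p = 0.0113, limma) and 180.4, 168 and 168 CPM with ACS (-0.59, adjusted p = 0.00952, limma).

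Of 14 partners and signaling genes of TREM2 and TYROBP, 0 were called with PRP lysate or ACS against IL-1ß with limma, while 5 and 3 had an unadjusted p under 0.05. PRP lysate replicate 1 decided the count for PRP lysate. TREM1, an activating receptor that also signals through TYROBP, had 2.18 CPM in that library and 14.5 and 14.1 CPM in the other two, against 2.97, 3.53 and 1.76 CPM with IL-1ß. CLEC5A, another TYROBP-coupled receptor, had 3.39 CPM there against 18.4 and 26.0 CPM, with 6.504, 3.84 and 1.45 CPM in the IL-1ß libraries. Without PRP lysate replicate 1 these 2 genes of 14 were called higher against IL-1ß. DESeq2 called the same 2 with all libraries, and edgeR called 0.

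Among 10 genes of lipid-associated macrophages, a state that depends on TREM2 in mice, 0 were called with PRP lysate or ACS against IL-1ß with limma, and 4 had an unadjusted p under 0.05 in each comparison. LPL, lipoprotein lipase, had 1011, 2850 and 2504 CPM with PRP lysate against 1254, 984 and 387 CPM with IL-1ß, and was called higher without PRP lysate replicate 1. DESeq2 called LPL higher with both products and edgeR called 0 genes of this list. Of 12 genes for lipid efflux and its nuclear receptors, 1 was called lower with PRP lysate against IL-1ß and 0 with ACS (limma; 5 of the 12 had an unadjusted p under 0.05 with ACS). DESeq2 and edgeR each called 1 with ACS, ABCG1, and with PRP lysate edgeR called ABCG1 and DESeq2 called 2, ABCG1 and the cholesterol exporter ABCA1. The gene limma called with PRP lysate was ABCG1, also a cholesterol exporter, with 71.6, 56.4 and 26.8 CPM in IL-1ß libraries and 12.04, 21.7 and 22.2 CPM with PRP lysate (log2 change -1.36, adjusted p = 0.0204, limma). ABCG1 was not called without PRP lysate replicate 1. Against MSC-CM, 2 of the 12 were called lower with PRP lysate, ABCG1 (-1.81, adjusted p = 0.00414, limma) and SREBF1, a regulator of lipid synthesis (-1.33, adjusted p = 0.0471, limma; not called by DESeq2 or edgeR), and 1 with ACS, ABCG1 (-1.46, adjusted p = 0.0284, limma).

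In the group that controls shedding and maturation of TAM proteins, 1 of 10 genes was called in each comparison of a blood product with IL-1ß, and it was the same gene, TIMP3. In each of the 2 comparisons 4 of the 10 had an unadjusted p under 0.05 (limma). TIMP3 inhibits metalloproteinases including ADAM17, the enzyme that cleaves MERTK from the cell surface. It had 57.5, 65.6 and 91.1 CPM in untreated libraries, 31.6, 27.8 and 23.5 CPM with IL-1ß and 23.4, 29.8 and 31.0 CPM with MSC-CM. With PRP lysate it had 105, 113 and 67.6 CPM, and with ACS 172, 164 and 159 CPM. TIMP3 was thus lower with IL-1ß than in untreated cells (log2 change -1.32, adjusted p = 0.0341, limma) and higher with both blood products than with IL-1ß (1.72, adjusted p = 0.000445, and 2.54, adjusted p = 7.7e-05).

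Transcripts of the proteases themselves were not separated. ADAM17 had 122, 87.9 and 31.1 CPM with IL-1ß, 59.2, 114 and 118 CPM with PRP lysate and 109, 113 and 113 CPM with ACS. Cleavage of MERTK protein was not measured. Of the 3 tested do-not-eat-me genes and the 9 find-me genes, 0 were called in any OT comparison with IL-1ß by limma, DESeq2 or edgeR, and at most 2 and 3 had an unadjusted p under 0.05 in 1 comparison. Against MSC-CM the find-me receptor CX3CR1 was called lower with PRP lysate by limma (log2 change -1.17, adjusted p = 0.0235) and DESeq2, but not by edgeR.

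Over the 15 libraries, the genes whose log2(CPM + 1) followed MERTK most closely were ENSECAG00000007417 (Pearson r = 0.972), ENSECAG00000030891 (r = 0.964) and CTSC (r = 0.962), the protease cathepsin C. As follows from their being picked for tracking MERTK, all 3 had their lowest group mean with PRP lysate and their next lowest with ACS. CTSC was at 425 and 1040 CPM there against 2001 CPM with IL-1ß. For TREM2 the closest were HAAO (r = 0.906), NASP (r = 0.905) and ENSECAG00000041629 (r = 0.900). AXL was closest to TMED10 (r = 0.962), SLC30A4 (0.951) and ANKS1A (0.947), and ELMO1 to RAB27A, DEK and ATP8B2 (0.968 each). GAS6 was closest to CRYAB (r = 0.880), with ENSECAG00000017717 (0.794) and DSTN (0.790) next, and TYROBP to NPC2 (0.938), IFI6 (0.927) and ENSECAG00000032188 (0.904).

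These correlations describe libraries that share macrophage donors and conditions, and some rest on few libraries. Without its 2 farthest libraries (IL-1ß replicate 3 and PRP lysate replicate 1), the correlation of AXL with TMED10 was 0.825 and with ANKS1A 0.668. That of MERTK with CTSC was 0.931 without PRP lysate replicates 1 and 3, and their Spearman correlation over the 15 libraries was 0.782.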

How the data were processed

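The authors deposited 1 table of CPM values for 15 libraries, made from TruSeq libraries of oligo(dT)-enriched RNA sequenced in read pairs. Per the methods, reads were trimmed at a Phred score of 20 in Partek Flow, adapters were removed with cutadapt, STAR 2.7.3 served for alignment to EquCab3.0, and HTSeq for counting on genes. The strand setting is not stated. Per the study's methods cells were cultured for a further 24 h after washing, a step that the sample descriptions do not mention. All columns matched a library and 0 were unmatched. Columns sum to 982495 to 991421 CPM over the listed genes.

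CPM were analysed as log2(CPM + 1) with limma 3.58.1 (R 4.3.3, trend) in 1 fit of 5 conditions with 3 libraries each, for the genes whose mean reached 1 CPM. CPM of genes with few reads are compressed by the added 1, which shrinks their changes. Benjamini-Hochberg adjustment was within each of 10 comparisons, and several comparisons share a group. Dividing by the CPM of 1 read gave whole reads for 99.5% of values (tolerance 0.05), which served DESeq2 1.42.0 and edgeR 4.0.16 as alternatives. Precision is limited by 3 libraries a group and, for TYRO3, PROS1 and GAS6, by reads.

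The named genes are all 10 members, the 3 genes most correlated with each tested member, and called genes of lists written from general knowledge. TREM1, CLEC5A, LPL, ADAM17 and VAV1, and the markers CD68, CD163, CSF1R, TRAT1, CDH5, CSF3R, S100A12, SPI1, ADGRE1, CD14, C1QB, MS4A1, NCR1 and CD79A, and ABCA1, were named after their values were seen. The members, lists and tests were chosen with earlier results of these data known. The fits without both libraries that stood apart, and the block over PRP lysate and MSC-CM alone, were added after seeing the data. The result of 1 marker is not reported here, and that marker was taken out of its list. No sequences are printed. The scripts were tested on simulated data.

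Replicate numbers were checked for pairing by correlating deviations from group means between libraries of the same number. Of 18 correlations 11 were over 0.1, ranging from -0.775 to 0.635. In PRP lysate and MSC-CM all 3 were over 0.1 (0.635, 0.255 and 0.419), so a fit of these 6 libraries with the replicate number as a block was added. Pairs of different number also correlated, MSC-CM replicate 3 with PRP lysate replicate 2 at 0.470 and MSC-CM replicate 2 with PRP lysate replicate 3 at 0.388. The remaining such pairs were at -0.596 to -0.365. Replicates 1 of MSC-CM and PRP lysate correlated more with IL-1ß replicate 3 (0.766 and 0.773), so these values do not establish a shared donor.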

Additional observations from a re-analysis of the deposited data

How the results depend on the processing

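Calls required a 2-fold change, without which 574 genes in place of 359 passed for PRP lysate against IL-1ß and 401 in place of 257 for ACS against IL-1ß. DESeq2 called 684 and 574 genes there, and limma fits of the 2 groups alone 56 and 48. Of 177 counts of called members over all alternatives, 156 were unchanged. In PRP lysate against IL-1ß the count was 2 with DESeq2, 1 to 2 when 1 library was left out, and 2 without IL-1ß replicate 3 and PRP lysate replicate 1 together. In ACS against IL-1ß it was 1 with DESeq2, edgeR, RLE size factors, TMM factors, no fold threshold and both libraries left out, and 0 to 1 when 1 library was left out. In ACS against MSC-CM it was 0 with DESeq2, RLE size factors and TMM factors and when any 1 of the 6 libraries was left out, and 1 without IL-1ß replicate 3 and PRP lysate replicate 1 together. In PRP lysate against untreated it was 2 with DESeq2. The log2 change of MERTK for MSC-CM against IL-1ß turned negative with RLE size factors (-0.11), TMM factors (-0.076), DESeq2 (-0.11), edgeR (-0.068), without IL-1ß replicate 3 (-0.11, also without PRP lysate replicate 1), and without MSC-CM replicate 3 (-0.03), ranging from -0.11 to 0.17 when 1 library was left out. RLE size factors moved the median log2 change of all genes in that comparison from 0.16 to 0.00, and the cause of the other turns was not tested. Of 59 member changes, 17 changed sign under at least 1 alternative, all of size 0.47 or less. Under the replicate block in the 6 PRP lysate and MSC-CM libraries, 1 member was called, as in the fit without it (MERTK, log2 change -2.76, adjusted p = 0.000596, limma), and TREM2 had an adjusted p of 0.0381 with a change of -0.73, under 2-fold. In these 6 libraries the genes called numbered 167 without the block and 406 with it, against 304 in the fit of 15 libraries. With the block over all 12 libraries with numbered titles, MERTK against IL-1ß had an adjusted p of 0.00124 (PRP lysate, limma) and the block changed no other member's call. Whether the PRP lysate and MSC-CM numbers mark a shared donor is not known, and the numbers of the other groups do not mark a shared source.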
